A study of Mus musculus with 6 samples.

Results

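The genes described here are the core circadian clock activators and repressors together with Bhlhe40, measured by RNA sequencing in mouse podocytes with less Mettl3. They were chosen by name: 10 symbols were looked up (Bhlhe40, Per1, Per2, Per3, Cry1, Cry2, Nr1d1, Nr1d2, Clock and Arntl), and 9 of them were among the 9120 genes in the expression table. The expression of Per3 is not analysed here. All 9 were among the 8047 genes tested. Bhlhe40 is in the set because earlier results of these data showed it lower in knockdown, so its knockdown values are given as a description with no test.

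MPC5 is a conditionally immortalised mouse podocyte line, a cell culture model of the epithelial cells that wrap the capillaries of the kidney's filter. All cultures were differentiated for 7 days without the interferon gamma that keeps the line dividing, and all were in high glucose (30 mM). Mettl3 knockdown cells received small interfering RNA (siRNA) against Mettl3, and control cells received scrambled siRNA, with 6 h of transfection in both. There were 3 libraries a group, numbered as biological replicates 1 to 3. In the titles, the replicate 3 libraries of both groups carry sample codes of another form than the other 4. The sources used here do not say what the difference in codes stands for.

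The circadian clock is a feedback loop of transcription that runs in nearly every cell type. CLOCK and BMAL1 (encoded by Arntl) bind E-box sequences and switch on the Per, Cry and Nr1d genes. PER and CRY proteins then repress CLOCK and BMAL1, and the NR1D1 and NR1D2 proteins (REV-ERB alpha and beta) repress Arntl through ROR elements. BHLHE40 (DEC1) binds E-boxes as a repressor, and its own gene is driven by hypoxia, serum and other stimuli as well as by the clock. METTL3 is the catalytic subunit of the enzyme that writes N6-methyladenosine (m6A) into mRNA, and in cultured cells blocking m6A methylation is known to lengthen the clock's period. These libraries were not taken as a time series, so no rhythm can be read from them, and m6A itself was not measured.

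The start regions of 4 members are printed as examples of where letters of known clock motifs stand, in the pair that differed in replicate 3 (Per1 and Nr1d1), in a repressor (Cry1) and in an activator (Arntl). Each runs from 250 bases before to 50 bases after a transcription start, 5′ to 3′ on the gene's strand, from RefSeq on GRCm38.p6, with the motif matches in capitals. The positions are chr11:69098699-69098998 (+) for Per1, chr11:98775328-98775627 (-) for Nr1d1, chr10:85185005-85185304 (-) for Cry1 and chr7:113207261-113207560 (+) for Arntl. Per1 and Arntl each have another RefSeq window, in which none of the motifs searched was found.
Per1: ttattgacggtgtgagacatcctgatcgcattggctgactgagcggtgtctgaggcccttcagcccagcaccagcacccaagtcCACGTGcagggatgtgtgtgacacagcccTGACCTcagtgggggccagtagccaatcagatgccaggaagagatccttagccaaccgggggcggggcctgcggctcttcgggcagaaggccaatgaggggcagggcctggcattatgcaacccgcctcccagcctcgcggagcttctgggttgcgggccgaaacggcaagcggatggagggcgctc
Nr1d1: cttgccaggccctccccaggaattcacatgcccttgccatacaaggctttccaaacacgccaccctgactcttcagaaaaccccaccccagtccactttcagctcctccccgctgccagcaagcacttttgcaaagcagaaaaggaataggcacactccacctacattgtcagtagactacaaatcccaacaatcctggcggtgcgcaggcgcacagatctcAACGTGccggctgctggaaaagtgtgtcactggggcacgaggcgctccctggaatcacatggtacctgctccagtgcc
Cry1: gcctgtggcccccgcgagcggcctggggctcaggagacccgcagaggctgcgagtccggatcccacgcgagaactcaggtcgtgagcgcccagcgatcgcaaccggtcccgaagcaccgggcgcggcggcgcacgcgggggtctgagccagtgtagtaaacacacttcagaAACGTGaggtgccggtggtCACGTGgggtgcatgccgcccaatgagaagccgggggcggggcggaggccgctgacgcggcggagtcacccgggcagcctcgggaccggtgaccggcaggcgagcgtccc
Arntl: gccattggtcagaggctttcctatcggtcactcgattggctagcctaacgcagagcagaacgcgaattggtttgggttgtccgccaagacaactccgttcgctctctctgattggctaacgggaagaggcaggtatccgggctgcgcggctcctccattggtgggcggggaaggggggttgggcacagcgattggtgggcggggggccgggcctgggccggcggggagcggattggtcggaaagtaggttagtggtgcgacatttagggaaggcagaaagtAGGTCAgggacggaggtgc

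The motifs were searched on both strands in the 12 RefSeq start windows found for 8 members (Per1, Per3, Cry1, Cry2, Nr1d1, Nr1d2, Clock and Arntl). The E-box CACGTG was in 2 of the 12 windows (of Per1 and Cry1). It was in 7.15% of all 32851 RefSeq start windows of the same length, those of the members included. The E-prime-box CACGTT was in 3 of the 12 (Cry1, Cry2 and Nr1d1) and in 4.68% of all windows. The core of the ROR element, AGGTCA, was in 4 of the 12 (Per1, Nr1d2, Clock and Arntl) and in 16.3% of all windows. The D-box, searched as TTATGTAA or TTACGTAA, was in 1 of the 12 (Per3) and in 1.06% of all windows. The cyclic AMP response element TGACGTCA was in none of the 12 windows and in 1.79% of all windows. Counting from 1 at the 5′ end of the 300-base window, the E-box of Per1 began at base 85 and its AGGTCA, on the other strand, at base 114. The E-prime-box of Nr1d1 began at base 223. In Cry1 the E-prime-box began at base 172 and the E-box at base 191, and in Arntl the AGGTCA began at base 282. A match is a run of letters and not a measured binding site.

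Expression is given as FPKM, fragments scaled to a transcript's length and a library's mapped fragments, in the authors' deposited values. FPKM is scaled by transcript length, so levels can be set side by side between genes. The table gives neither counts nor depth, so the counting error behind a value is unknown. The design text calls the replicates biological but does not say how the cultures were separated, so p-values measure the spread between these libraries, which may be partly technical. Mettl3 measured 3.68, 3.85 and 3.90 FPKM in knockdown replicates 1 to 3, against 5.87, 6.34 and 5.75 FPKM in control replicates 1 to 3, so no knockdown library reached the lowest control (exact permutation test, two-sided p = 0.1, the smallest that 3 libraries against 3 allow). In the fit over all genes tested used below, Mettl3 itself did not pass (limma adjusted p = 0.799). A gene that does not pass that fit may therefore still differ. On the first principal component of all genes tested, which held 44.3% of the variance, both replicate 3 libraries lay apart from the other 4. Of 10 podocyte markers 5 were in the table (Wt1, Tjp1, Synpo, Actn4 and Cd2ap), while Nphs1, which encodes the slit diaphragm protein nephrin, was not. Markers of endothelial and immune cells were not in the table (0 of 5 each), and 1 of 6 tubule markers and 4 of 6 mesangial or fibroblast markers were.

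Bhlhe40 had the highest level of the 9 genes, with a mean of 21.0 FPKM over the 6 libraries. It was followed by Nr1d1 at 10.6, Nr1d2 at 6.70, Clock at 6.51, Arntl at 5.82, Cry2 at 5.81, Per2 at 4.64, Per1 at 3.36 and Cry1 at 2.06 FPKM. Bhlhe40 was above Nr1d1 in 6 of 6 libraries, and the ranges of these neighbours did not overlap. The ranges of every other pair of neighbours overlapped. Within a library, Nr1d1 was above Nr1d2, Cry2 above Per2 and Per2 above Per1 in 6 of 6, while Nr1d2 was above Clock, and Clock above Arntl, in 4 of 6. The coefficient of variation over the 6 libraries was smallest for the activators, 9.49% for Arntl and 9.78% for Clock. It was largest for Cry1, 32.2%, the gene with the lowest level.

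**Figure D1:**
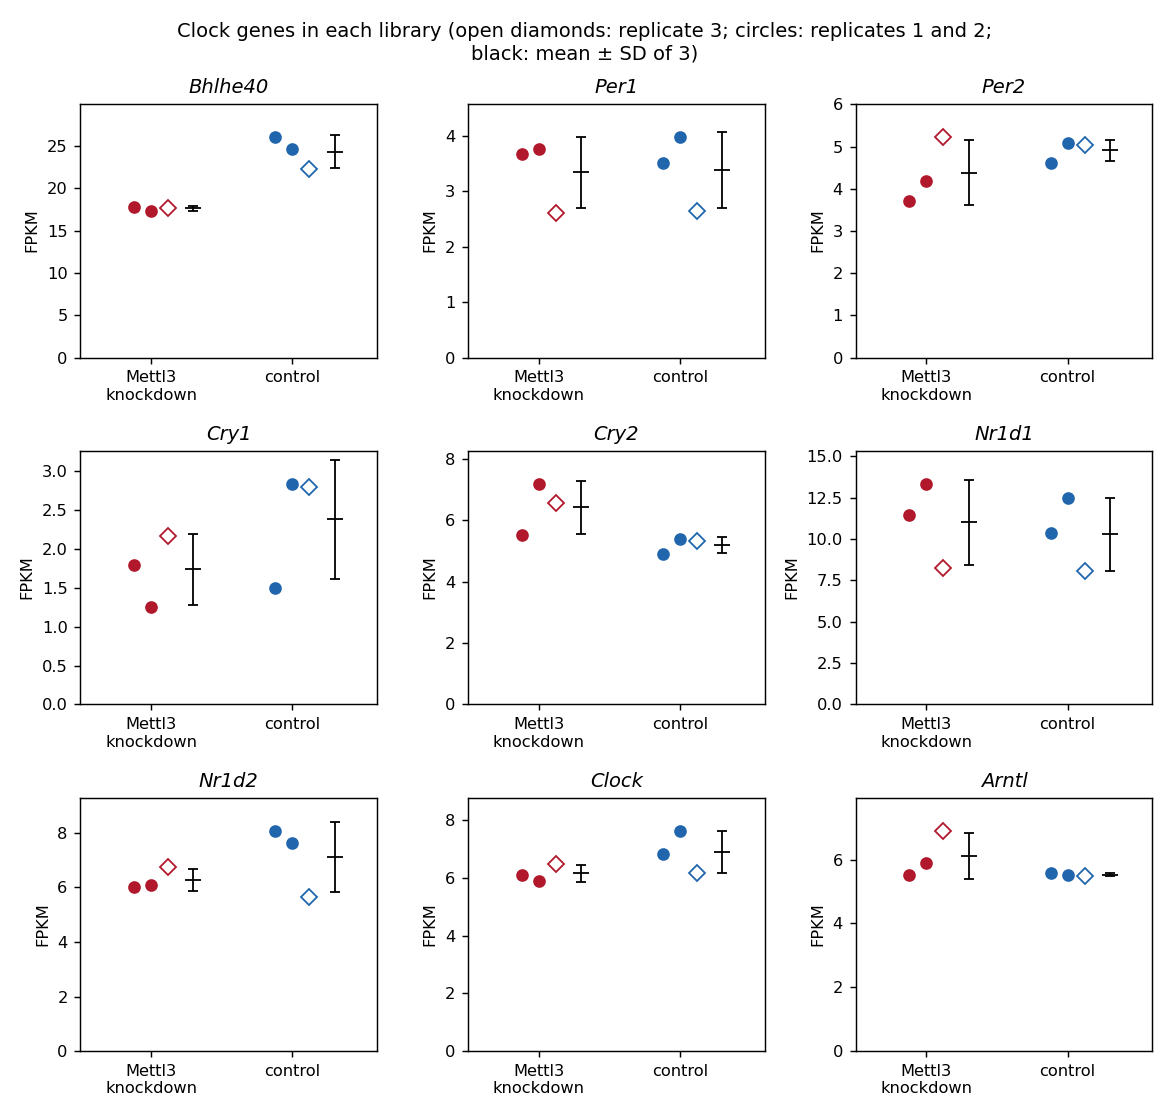
FPKM of the 9 clock genes in each library, Mettl3 knockdown on the left of each panel and control on the right, with open diamonds for replicate 3, circles for replicates 1 and 2, and the mean ± SD of 3 in black. Bhlhe40 and Cry2 are the genes whose groups do not overlap, and Per1 and Nr1d1 are lowest in both replicate 3 libraries.

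Bhlhe40 was lower in every knockdown library than in any control library. The FPKM was 17.8, 17.3 and 17.7 in knockdown replicates 1 to 3, against 26.1, 24.6 and 22.3 in control replicates 1 to 3. The means were 17.6 ± 0.26 FPKM in knockdown and 24.3 ± 1.92 FPKM in control (SD, n = 3 each), a difference of -27.5%. On the log2(FPKM + 1) scale, on which every difference below is given, knockdown minus control was -0.44 (SE 0.09). The knockdown libraries lay closer to one another than the controls did, and replicate 3 was the lowest of the controls. The gene (ENSMUSG00000030103.11) lies at chr6:108660629-108666925 (+) on GRCm38, and 2.51% of its exon bases also belong to an antisense gene, 0610040F04Rik. The sources used here do not say how reads were assigned to overlapping genes.

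The repressors of the negative limb gave mixed values, and none of them passed the test across all genes (limma with Benjamini-Hochberg adjustment, adjusted p = 0.998 for each member other than Bhlhe40). Per1, a light and glucocorticoid responsive repressor, measured 3.66, 3.75 and 2.60 FPKM in knockdown and 3.51, 3.98 and 2.64 FPKM in control, a difference of -0.01 (SE 0.17). Per2, its partner in the repressor complex, measured 3.72, 4.19 and 5.23 FPKM in knockdown and 4.61, 5.08 and 5.03 FPKM in control, a difference of -0.14 (SE 0.13). The groups overlapped for both, with each group's values ordered more by replicate than by siRNA for Per1. Cry1, which encodes the stronger cryptochrome repressor, measured 1.79, 1.26 and 2.17 FPKM in knockdown and 1.49, 2.83 and 2.80 FPKM in control (-0.29, SE 0.21), also with overlap.

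Cry2, which encodes the second cryptochrome, was the member whose knockdown libraries were all above the controls. It measured 5.51, 7.19 and 6.55 FPKM in knockdown, against 4.91, 5.38 and 5.32 FPKM in control. The means were 6.42 ± 0.85 FPKM in knockdown and 5.21 ± 0.26 FPKM in control (SD, n = 3 each), a log2 difference of 0.25 (SE 0.12). This did not pass over all genes (limma adjusted p = 0.998, and 0.423 with the replicate number as a block). An opposite-strand transcript, D930015M05Rik, shares 4.67% of the exon bases of Cry2.

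The REV-ERB genes and the activators overlapped between groups. Nr1d1 measured 11.4, 13.3 and 8.22 FPKM in knockdown and 10.4, 12.5 and 8.04 FPKM in control (log2 difference 0.08, SE 0.21). Nr1d2 measured 6.02, 6.08 and 6.74 FPKM in knockdown and 8.08, 7.63 and 5.66 FPKM in control (-0.15, SE 0.14). Both knockdown values of replicates 1 and 2 lay below their controls for Nr1d2, and the replicate 3 pair was the other way round. Clock measured 6.10, 5.87 and 6.46 FPKM in knockdown and 6.83, 7.62 and 6.17 FPKM in control (-0.14, SE 0.11). Arntl measured 5.53, 5.91 and 6.90 FPKM in knockdown and 5.59, 5.51 and 5.49 FPKM in control (0.12, SE 0.11). The control values of Arntl were the closest of all members, with an SD of 0.06 FPKM, and knockdown replicate 3 stood above them.

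Across the 9 members, 3 differences were above 0 and 6 below it, and their median was -0.14. Over all genes tested 4400 were above 0 and 3647 below it, and the median was 0.02. Leaving out Bhlhe40, which is given with no test, no member passed the threshold (adjusted p under 0.05). The background was 0% of all genes with this fit, 0% with the code form of the titles as a covariate and 0% with the replicate block. At an unadjusted p under 0.05 the same fit counted 366 genes. The groups did not overlap for 1 member that was lower (Bhlhe40) and 1 that was higher (Cry2), beside 4.01% of all genes lower, 6.06% higher and 10.1% in either direction. As the membership of Bhlhe40 rests on this contrast, nothing is read from these counts.

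**Figure D2:**
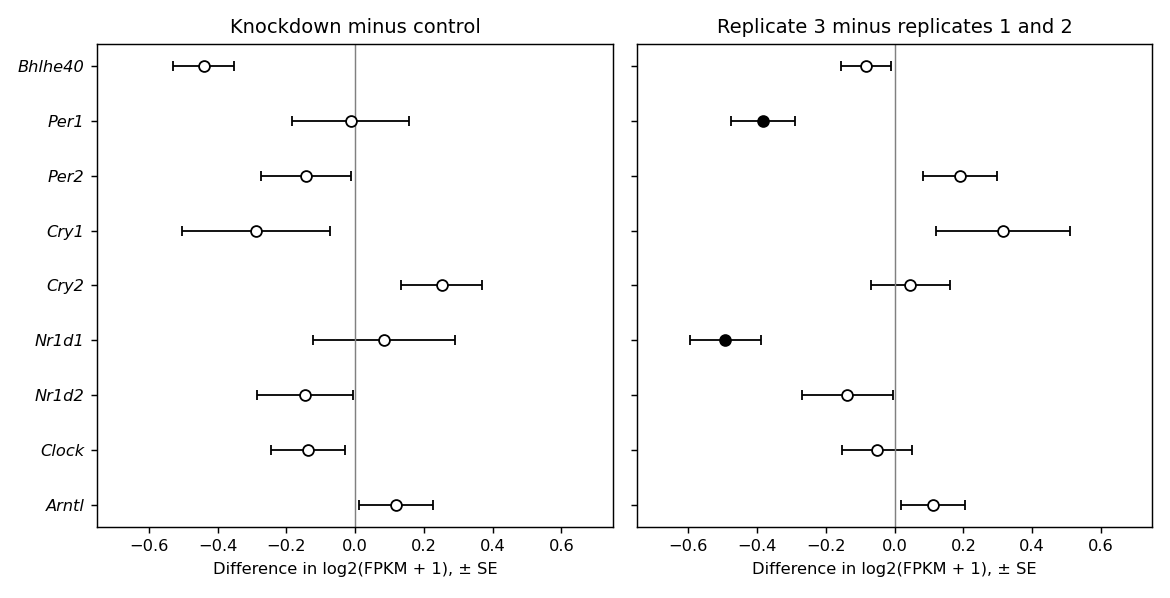
Log2(FPKM + 1) differences ± SE of the 9 clock genes, for knockdown minus control on the left and for replicate 3 minus replicates 1 and 2 on the right. Filled circles mark an adjusted p under 0.05, reached by Per1 and Nr1d1 in the right panel. Bhlhe40 has the most negative knockdown difference, -0.44.

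Replicate 3 was compared with replicates 1 and 2 over both siRNA groups, a contrast that the rule for the members does not use, though the separation of replicate 3 was known when they were chosen. Here Per1 and Nr1d1 fell and no other member passed. Nr1d1 averaged 8.13 FPKM in the 2 replicate 3 libraries and 11.9 FPKM in the other 4, a difference of -31.6%. On the log2 scale it was -0.49 (SE 0.10, limma adjusted p = 0.0238), and it was -0.53 among knockdown libraries and -0.45 among controls. Per1 averaged 2.62 FPKM in replicate 3 and 3.73 FPKM in the others, a difference of -29.7%. On the log2 scale it was -0.38 (SE 0.09, limma adjusted p = 0.0375), with -0.39 among knockdown libraries and -0.38 among controls. For both genes each replicate 3 library lay below all 4 others.

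Both calls rest on few libraries. Per1 did not pass when any one of the 6 libraries was left out (adjusted p 0.0515 to 0.191) or with the replicate block (adjusted p = 0.0587). Nr1d1 did not pass without knockdown replicate 2 (limma adjusted p = 0.0542), knockdown replicate 3 (0.171), control replicate 2 (0.0541) or control replicate 3 (0.129), and passed without knockdown replicate 1 (0.0430) or control replicate 1 (0.0232). Nr1d1 (chr11:98767932-98775333, - strand) and the thyroid hormone receptor gene Thra overlap tail to tail on opposite strands and share 8.55% of the exon bases of Nr1d1. Thra, looked up for this overlap, differed by 0.03 in replicate 3 (SE 0.07, limma adjusted p = 0.790). Per1 lies at chr11:69095217-69109960 (+).

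The other 7 members gave smaller or more variable differences for replicate 3. The log2 difference was 0.32 (SE 0.20, limma adjusted p = 0.302) for Cry1 and 0.19 (SE 0.11, adjusted p = 0.265) for Per2, so these differences lay on the other side of 0 from that of Per1. For Bhlhe40, the mean was 20.0 FPKM in replicate 3 and 21.4 FPKM in the others (-0.08, SE 0.07, limma adjusted p = 0.456). Nr1d2 (-0.14), Clock (-0.05), Cry2 (0.05) and Arntl (0.11) had adjusted p-values of 0.447 to 0.812. In all, 2 of 9 members passed (22.2%), both lower, beside 18.8% of all genes, 12.6% being lower and 6.23% higher. Of all genes 501 of 1513 calls were higher, and this became 636 of 1370 with quantile normalization and 682 of 1461 with upper quartile scaling. The replicate 3 libraries did not overlap the others for 2 of 9 members, beside 43.1% of all genes. The members' median was -0.05, beside -0.06 over all genes. By adjusted p the share of clock genes that differed was thus near the background of this contrast, and by non-overlap it was below it.

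Other measures moved with replicate 3. Of the 4 listed mesangial or fibroblast markers, 3 were higher in replicate 3 and 1 was lower. Col1a1 measured 3285 FPKM in knockdown replicate 3 and 3113 FPKM in control replicate 3, against 1464 to 1951 FPKM in the others, Col1a2 rose by 1.02 on the log2 scale and Acta2 by 1.80 (limma adjusted p 0.00127, 0.00114 and 0.000383 for Col1a1, Col1a2 and Acta2). Pdgfrb fell by 0.26 (limma adjusted p = 0.0245). The sum of the 4 was 3994 to 4139 FPKM in the replicate 3 libraries and 1868 to 2424 FPKM in the others, and Col1a1 makes up most of it. The 5 listed podocyte markers summed to 166 to 170 FPKM in replicate 3 and 167 to 178 FPKM in the others. Most of that sum is Actn4 and Tjp1, which other cells express too, while Wt1 and Synpo were at 0.328 to 1.25 FPKM and were not tested. The tubule marker Aqp1 measured 1.35 and 1.53 FPKM in replicate 3 and 0 to 0.536 FPKM in the others. The median FPKM of a library was 5.22 and 5.26 in replicate 3, against 5.46 to 5.66 in the others. The part of these measures in the lower Per1 and Nr1d1 was not tested, and fewer cells of a type and less RNA per cell cannot be told apart in bulk libraries. Between the siRNA groups the mesangial or fibroblast sum ranged over 2399 to 4139 FPKM in knockdown and 1868 to 3994 FPKM in control.

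The knockdown difference itself was also compared between replicates. For Bhlhe40 it was -0.31 in the replicate 3 pair and -0.50 in replicates 1 and 2, lower in both. In the replicate 3 pair it was 0.22 for Nr1d2, 0.06 for Clock and 0.05 for Per2. In replicates 1 and 2 it was -0.33 for Nr1d2, -0.23 for Clock and -0.24 for Per2. Per1, Cry1 and Cry2 had nearly equal values in both. The largest interaction was that of Nr1d2, 0.54 (SE 0.16, unadjusted p = 0.0193 in the limma fit), and it did not pass (adjusted p = 0.993). Adjusted p-values were 0.993 to 0.999 for the 9 members, and 0.0497% of all genes, 4 in number, passed. With 1 library a group in replicate 3, its spread is assumed to be that of the other libraries.

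**Figure D3:**
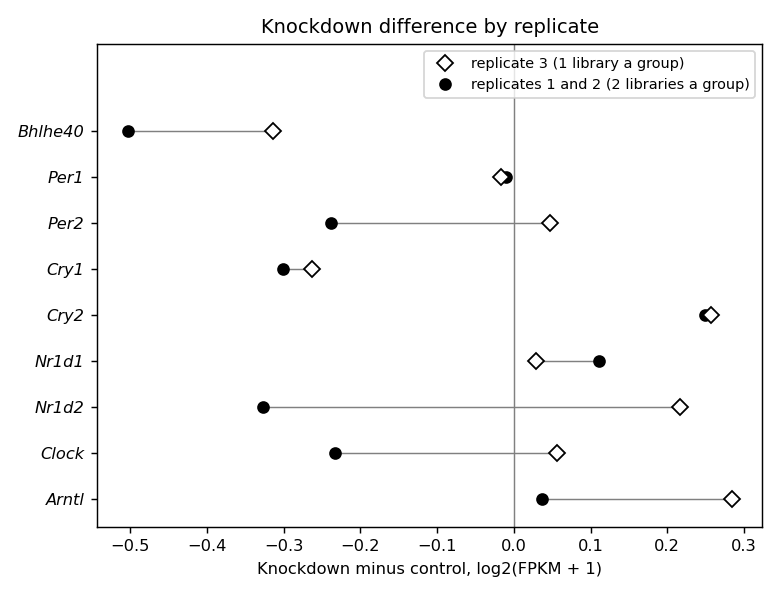
Knockdown minus control in log2(FPKM + 1) for each clock gene, as open diamonds for the replicate 3 pair and filled circles for replicates 1 and 2, with a grey line joining both. Nr1d2, Clock and Per2 lie on opposite sides of 0, Bhlhe40 is below 0 and Cry2 above 0 in both, and no interaction passed the test.

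Genes around the core loop were described from 7 lists of clock-related genes with 84 symbols, of which 69 were in the table and 64 were tested. In the knockdown contrast none of them passed (0 of 64), with 32 above 0 and 32 below. The differences of largest size in the lists included those of Vegfa and Nampt. Vegfa, the hypoxia-driven growth factor gene that podocytes make for the glomerular capillaries, measured 48.2, 48.2 and 52.1 FPKM in knockdown and 64.1, 66.9 and 60.0 FPKM in control (-0.36, limma adjusted p = 0.865). Nampt, a clock output that encodes an enzyme of NAD salvage, measured 26.4, 26.9 and 25.0 FPKM in knockdown and 39.2, 40.0 and 28.2 FPKM in control (-0.42, limma adjusted p = 0.998). Nr3c1, which encodes the glucocorticoid receptor that resets peripheral clocks, measured 14.7, 12.4 and 13.5 FPKM in knockdown and 15.3, 20.3 and 15.3 FPKM in control (-0.30). Fbxw11, a ubiquitin ligase subunit that marks PER proteins for degradation, had a difference of -0.23. In the list of PER and CRY kinases, phosphatases and ubiquitin enzymes 12 of 14 were above 0, with a median of 0.06 and none past the threshold. In the 64 genes the groups did not overlap for 4 that were lower (Vegfa, Nampt, Nr3c1 and Fbxw11) and 2 that were higher (Csnk1e and P4ha2), beside 10.1% of all genes in either direction, so the share was near the background.

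In replicate 3, 18 of the 64 passed (28.1%), 3 higher and 15 lower. Of the 18, 7 were hypoxia-inducible factors and targets, a list with 13 tested genes. Over all genes 18.8% passed, 6.23% higher and 12.6% lower. These are the libraries with higher Col1a1, Col1a2 and Acta2 and lower Pdgfrb, and the part of those markers in the lists was not tested. Tef, a PAR bZIP output factor that binds D-boxes, rose. It measured 4.70 FPKM in knockdown replicate 3 and 4.72 FPKM in control replicate 3, against 2.51 to 2.66 FPKM in the other 4 libraries (0.67, SE 0.09, limma adjusted p = 0.00574). Dbp, the founding member of that family, gave 0.12 (limma adjusted p = 0.288) and Nfil3, the repressor at the same D-boxes, 0.29 (adjusted p = 0.0714). For these 3 genes, all those of the list of 4 that were in the table, each replicate 3 library was above the others, as for 1236 of all 8047 genes. Npas2, a partner of BMAL1 that can stand in for CLOCK, fell. It measured 0.433 FPKM in knockdown replicate 3 and 0.661 FPKM in control replicate 3, against 1.43 to 1.59 FPKM in the others (-0.70, SE 0.12, limma adjusted p = 0.0131). Tef and Npas2 did not pass when either replicate 3 library was left out (limma adjusted p 0.0582 to 0.121). Bhlhe41, the paralog of Bhlhe40, measured 2.58, 2.20 and 3.02 FPKM in knockdown and 2.58, 2.75 and 2.56 FPKM in control, and gave 0.10 for replicate 3 (limma adjusted p = 0.573).

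Among inputs to the clock, Tsc22d3 (GILZ), a glucocorticoid-induced gene, rose in replicate 3. It measured 8.51 FPKM in knockdown replicate 3 and 7.32 FPKM in control replicate 3, against 2.77 to 4.08 FPKM in the others (1.01, SE 0.14, limma adjusted p = 0.00585, and 0.0618 without knockdown replicate 3). It was the 1 of 10 input genes that passed (10%), beside 18.8% of all genes, and with no filter 2 of 12 passed. The median of that list was 0.05, beside -0.06 over all genes. Per1, also a glucocorticoid-induced gene, was lower in the same libraries, and the part of glucocorticoids in either gene was not tested. Creb1 (-0.25) and Crem (0.25), whose proteins act at cyclic AMP response elements such as those known in Per genes, did not pass (limma adjusted p 0.103 and 0.0954).

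Of 14 cofactors 13 were below 0, with a median of -0.14, and 4 fell (Sfpq, Ddx5, Thrap3 and Ncor1). Over all genes the median was -0.06, 4822 of 8047 lay below 0 and 12.6% fell. Sfpq, an RNA-binding protein of PER complexes, measured 54.5 FPKM in knockdown replicate 3 and 56.1 FPKM in control replicate 3, against 76.4 to 81.7 FPKM in the others (-0.49, SE 0.05, limma adjusted p = 0.00281), and it passed under all 15 alternatives run. The count of 4 became 1 without knockdown replicate 1, knockdown replicate 3 or control replicate 3, and 2 without control replicate 2. It became 1 with upper quartile scaling and 2 with quantile normalization or no filter. Of 14 kinases, phosphatases and ubiquitin enzymes 3 fell (Usp7, Ppp1cc and Csnk1a1) and 1 rose (Ppp1ca), with a median of 0.01, which is 28.6% passing beside 18.8% of all genes. That count of 4 became 1 without knockdown replicate 3, 0 without control replicate 3 and 2 without knockdown replicate 1. None of the 7 clock output genes tested passed (1, Nampt, did without knockdown replicate 3), and their median was -0.08.

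Hypoxia-inducible factors and their targets were listed because hypoxia drives Bhlhe40. In replicate 3, 7 of 13 fell (53.8%, Hif1a, Ero1l, Bnip3, Slc2a1, Egln1, Ndrg1 and Egln3) and 12 of 13 were below 0, with a median of -0.28. Over all genes 12.6% fell and 4822 of 8047 were below 0. Hif1a, the oxygen-regulated subunit gene, measured 37.3 FPKM in knockdown replicate 3 and 32.8 FPKM in control replicate 3, against 47.3 to 52.5 FPKM in the others (-0.51, SE 0.08, limma adjusted p = 0.00833, and 0.0677 without control replicate 3). The count of 7 became 0 without control replicate 3, 2 without knockdown replicate 3, 3 without knockdown replicate 1 and 4 without control replicate 2. Bhlhe40 did not pass in this contrast. In the knockdown contrast, 7 of the 13 were above 0 and 6 below it (median 0.02), and none passed. The part of the hypoxia genes in the values of Bhlhe40 was not tested.

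**Figure D4:**
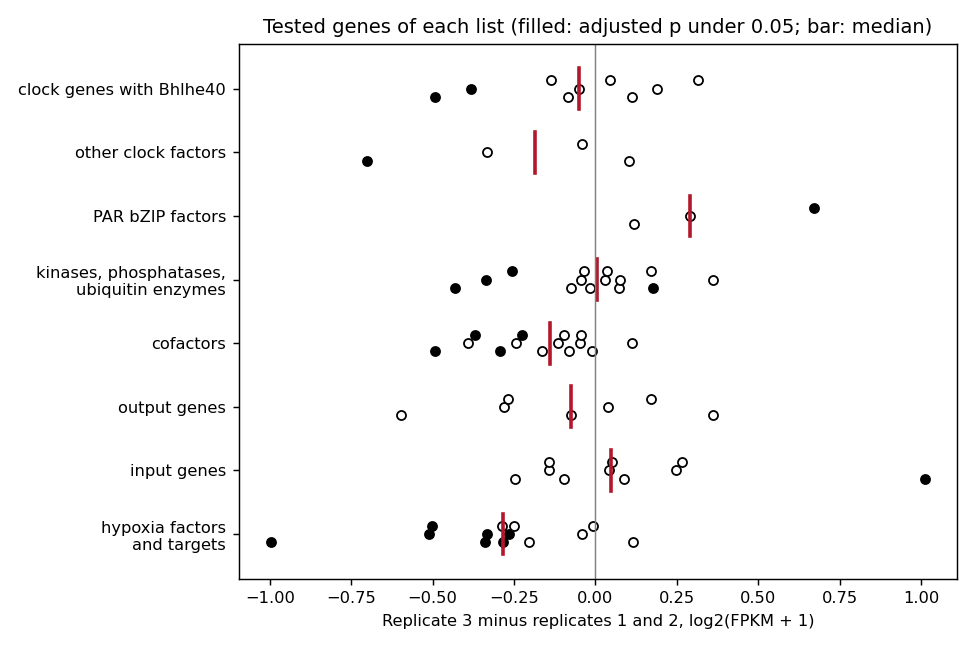
Replicate 3 minus replicates 1 and 2 in log2(FPKM + 1) for every tested gene of the clock list and of 7 lists around it. Each circle is a gene, filled where the adjusted p is under 0.05, and the red bar is the list's median. The median is lowest for the hypoxia list, at -0.28. It is highest, at 0.29, for the list labelled PAR bZIP factors, where it is the value of the D-box repressor Nfil3.

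Splitting clock-controlled genes by the element known to drive them did not give a single direction. Of 9 genes driven through E-boxes, 5 were above 0 and 4 below in replicate 3, and 1 rose (Tef) while 2 fell (Per1 and Nr1d1), beside 18.8% of all genes passing. That count of 3 became 0 when either replicate 3 library was left out, and 1 without knockdown replicate 2 or control replicate 2. Of 5 driven through ROR elements 3 were above 0 and 2 below, and Npas2 fell, also beside 18.8%, with no call left when either replicate 3 library was left out. These lists share members with the others.

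The genes whose pattern over the 6 libraries was most like that of Bhlhe40 were sought among tested genes with a mean of at least 2 FPKM. These were 6807 with Bhlhe40 itself, before predicted or unnamed gene models were left out. The highest Pearson correlations of log2 values with Bhlhe40 were those of Iqcb1 (0.988), Tmtc3 (0.984), Zscan22 (0.983), Rhoq (0.983) and Faf1 (0.979). These describe 6 libraries that share the siRNA contrast. The genes were picked for this likeness, so an order of libraries shared with Bhlhe40 follows from the choice. Rhoq, which encodes a small GTPase, measured 23.1, 21.5 and 20.0 FPKM in knockdown and 36.8, 36.4 and 29.8 FPKM in control. Tmtc3 measured 2.71, 2.56 and 3.06 FPKM in knockdown and 5.48, 5.62 and 4.34 FPKM in control. In both, as in Bhlhe40, control replicate 3 was the lowest control and lay above every knockdown library. Among the clock genes the correlation with Bhlhe40 was 0.735 for Clock, 0.665 for Nr1d2, 0.429 for Per2, 0.349 for Cry1, 0.173 for Per1, -0.06 for Nr1d1, -0.54 for Arntl and -0.81 for Cry2. As Bhlhe40 was chosen by the siRNA contrast, these values partly restate each gene's difference in it, and no shared regulation is read from them.

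**Figure D5:**
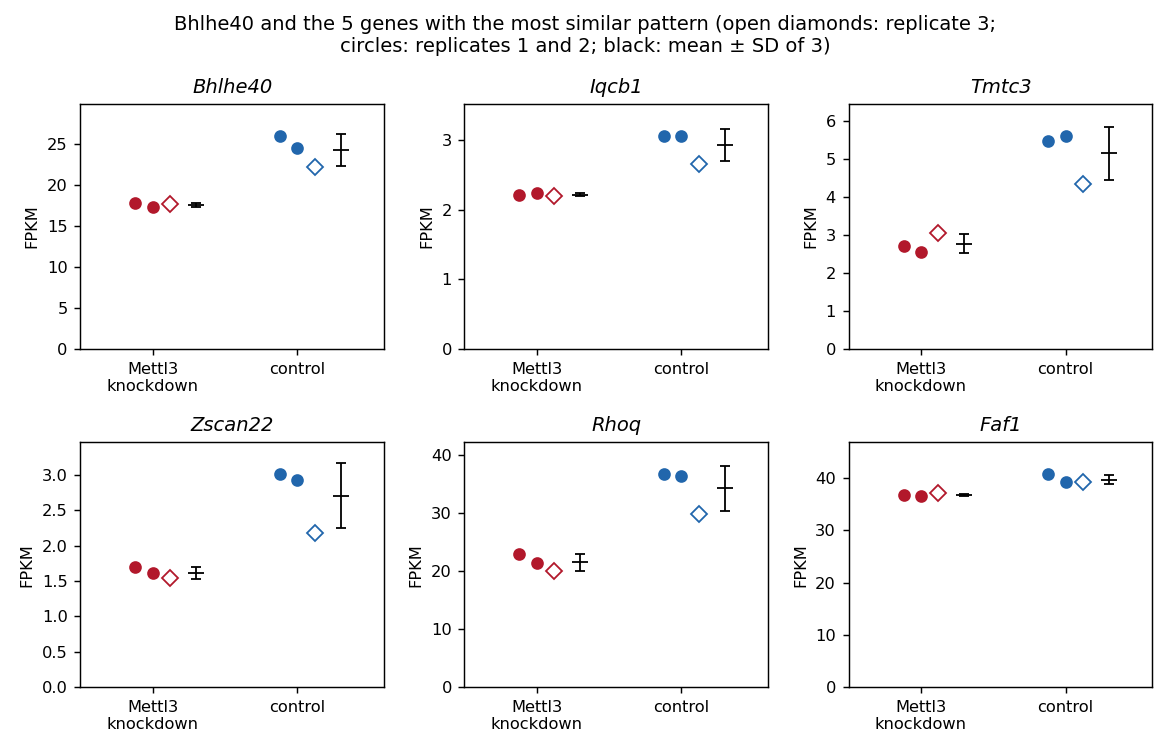
FPKM of Bhlhe40 and of the 5 genes most like it over the 6 libraries, Mettl3 knockdown left and control right in each panel, with open diamonds for replicate 3, circles for replicates 1 and 2, and mean ± SD of 3 in black. In each panel all knockdown libraries lie below all controls, an order that the choice of genes by likeness to Bhlhe40 favours. Bhlhe40 is at 17.6 ± 0.26 FPKM in knockdown and 24.3 ± 1.92 FPKM in control.

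The clock transcripts also differ in how often they hold the bases GGACT, a sequence in which METTL3 is known to methylate the adenosine. In the longest annotated transcript of each gene the density was 1.61 per kilobase for Bhlhe40, 2.52 for Cry2, 1.89 for Per2, 1.50 for Per1, 1.50 for Arntl, 1.10 for Nr1d1, 0.821 for Clock, 0.661 for Cry1 and 0.643 for Nr1d2. Over 9110 genes the median was 1.02 per kilobase, with quartiles of 0.633 and 1.46, and 93.4% of genes had at least 1. Above the upper quartile lay 5 of the 9 members, Cry2, Per2, Bhlhe40, Arntl and Per1. Whether any of these transcripts carries m6A in these cells was not measured.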

How the data were processed

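The authors deposited gene-level FPKM for 6 libraries, per the file headers; the table gives no counts. HISAT2 2.0.4, StringTie 1.2.2, R 2.10.0, cutadapt 1.17 and FastQC 0.11.7 are listed, without their roles, per the submitters' processing notes; strand and multi-gene read handling were not given in the sources used here. These notes also name mm9, but 9110 of 9120 identifiers matched GENCODE vM21 and 8377 spans, those of all 9 members included, were identical on GRCm38, so coordinates are given as GRCm38. The lowest group mean that the table keeps is 0.501 FPKM (higher of both groups). FPKM summed to 173721 to 176526 per library, and 74 to 118 genes per library were listed at 0. Whole read multiples were sought in the 150 lowest values above 0 per library, among genes with a single annotated transcript (tolerance 0.05). At the best of many trial depths at most 21.3% matched. Chance gives 10% at a given depth and more at the best of many, so depth is unknown.

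Genes with FPKM of at least 1 in 3 of 6 libraries (8047) were fitted as log2(FPKM + 1), which understates changes of low genes, with limma 3.58.1 in R 4.3.3 (intensity trend, two-sided, Benjamini-Hochberg over all genes tested, threshold 0.05). The fits were knockdown against control, replicate 3 against replicates 1 and 2 with siRNA group as a covariate, and their interaction. Tables, motifs and figures were made with Python 3.11.15. The limma fits were tested on simulated data with changes larger than any difference of the clock genes given here. That does not show whether changes of the sizes seen here would be found. Libraries of the same number deviated together (r = 0.231, 0.196 and 0.558 for numbers 1, 2 and 3, all above 0.1), so a replicate block was an alternative; crossed libraries 1 and 2 correlated as well (0.257 and 0.226). Other alternatives were pseudocounts, filters, scalings, variance settings, the title code as covariate, and each library left out.

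The members and lists were chosen with earlier results of these data known, and the separation of replicate 3 was known too. Genes named are the members, Mettl3, per other list up to 3 tested genes with the smallest unadjusted p in each contrast, and the 5 most like Bhlhe40 with a mean of at least 2 FPKM; other list genes named beside a count, and Thra, were chosen after their values were seen.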

Additional observations from a re-analysis of the deposited data

How the results depend on the processing

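The number of genes past the threshold in knockdown against control was 0, and it was 1 with robust variance without trend, 2 within the 4 libraries with codes of the first form, and 0 to 2 when each library was left out. The knockdown difference of Bhlhe40 stayed between -0.50 and -0.39 under 16 alternatives. Bhlhe40 was chosen by this contrast in the same libraries, so that range is a description and no support for the difference. For replicate 3 the count of 1513 genes became 343 to 1204 when each library was left out, and for the interaction the count of 4 became 12 with no filter. The count of 2 clock genes past the threshold in replicate 3 became 1 with a filter of 5 FPKM (where Per1 was not tested), 1 with quantile normalization, 1 with upper quartile scaling, 1 with the replicate block, and 0 to 1 when each library was left out; Nr1d1 kept its call under the 4 settings named. The replicate block changed no other call among the clock genes. Robust variance without trend lowered the replicate 3 counts to 1 of the cofactors, 2 of the kinases, phosphatases and ubiquitin enzymes and 3 of the hypoxia genes.

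Signs that turned were all of differences that did not pass. When each library was left out, the log2 difference was -0.14 to 0.12 for Per1 and -0.067 to 0.26 for Nr1d1 in knockdown against control. For replicate 3 it was -0.18 to 0.011 for Bhlhe40, -0.026 to 0.12 for Cry2, -0.41 to 0.13 for Nr1d2, -0.20 to 0.094 for Clock, -0.013 to 0.235 for Arntl and -0.041 to 0.25 for Bhlhe41. Clock was 0.019 with quantile normalization and 0.0033 with upper quartile scaling. The cause of these changes was not tested, beyond the fewer libraries in a fit that leaves one out. Without counts, the table does not show how far depth limits the low genes, Cry1 and Npas2 among them.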

Other observations

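Atf1, a CREB family factor on the list of clock inputs, was left out of the tests because it reached 1 FPKM in only 2 libraries, those of replicate 3. It measured 4.33 FPKM in knockdown replicate 3 and 4.92 FPKM in control replicate 3, against 0.495 to 0.710 FPKM in the other 4 libraries. Ciart, a clock repressor gene, was listed at 0 in knockdown replicate 2 and control replicate 3 and measured at most 1.00 FPKM elsewhere, and Rora, the activator at ROR elements, measured 0.475 to 0.973 FPKM over the 6 libraries.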
